A study of Homo sapiens with 4 samples.

Results

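The 10 genes of the YAP/TAZ and TEAD branch of Hippo signaling examined here are the effectors YAP1 and WWTR1, the DNA-binding partners TEAD1 and TEAD4, the targets CTGF, CYR61 and ANKRD1, and the regulators AMOTL2, LATS2 and AJUBA. They were chosen by name, all 10 have a row in the deposited count table, and the table holds 56304 different genes. The samples were spheroids of MV3, an established human melanoma line of high metastatic capacity that carried the nuclear reporter H2B-GFP, and both zones shared this genotype and the embedding in collagen I. On day 2 a 1 mm punch removed the core from spheroids of 50000 cells, and a 3 mm punch then collected the cells that had invaded the gel around it. Each zone is represented by replicates 1 and 2. By the study's own account the vertical punch can leave invading cells above and below the spheroid in the core sample.

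YAP1 and its paralog TAZ, the product of WWTR1, are transcriptional coactivators without a DNA-binding domain of their own. They enter the nucleus, bind TEAD factors on DNA and switch on genes for secreted matrix-associated proteins, cytoskeletal proteins and feedback inhibitors. The Hippo kinases LATS1 and LATS2 phosphorylate both coactivators and hold them in the cytoplasm, and crowding, cell shape and matrix stiffness are known to act on this step. Their activity is therefore set largely at the protein level, which RNA counts do not measure.

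TEAD factors recognize the letters GGAATG, or CATTCC when read from the other strand, and the windows of 250 bases before the transcription start show where these letters lie at the targets. RefSeq start sites on GRCh38.p14 were at hand for 7 of the 10 genes, with 10 starts in all, and TEAD1, TEAD4 and CYR61 had no entry. The windows of CTGF (chr6:131951373-131951622, minus strand), ANKRD1 (chr10:90921088-90921337, minus strand) and LATS2 (chr13:21061587-21061836, minus strand) are printed from 5′ to 3′ on the strand of the gene, with every copy of the motif in capitals. They are shown because CTGF had the largest fold change of the members that passed the count filter, ANKRD1 is a classical target with hardly any reads, and LATS2 showed no detectable zone difference.
CTGF: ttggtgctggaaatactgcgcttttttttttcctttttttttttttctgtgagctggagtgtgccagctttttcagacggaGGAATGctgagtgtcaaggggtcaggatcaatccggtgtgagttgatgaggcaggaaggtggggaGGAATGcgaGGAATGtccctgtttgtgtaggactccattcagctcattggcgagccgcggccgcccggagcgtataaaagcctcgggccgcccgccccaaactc
ANKRD1: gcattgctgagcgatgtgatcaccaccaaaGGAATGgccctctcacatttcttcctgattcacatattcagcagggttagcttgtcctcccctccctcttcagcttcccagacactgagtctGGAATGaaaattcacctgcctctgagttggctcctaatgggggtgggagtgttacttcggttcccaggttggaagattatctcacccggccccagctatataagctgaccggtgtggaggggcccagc
LATS2: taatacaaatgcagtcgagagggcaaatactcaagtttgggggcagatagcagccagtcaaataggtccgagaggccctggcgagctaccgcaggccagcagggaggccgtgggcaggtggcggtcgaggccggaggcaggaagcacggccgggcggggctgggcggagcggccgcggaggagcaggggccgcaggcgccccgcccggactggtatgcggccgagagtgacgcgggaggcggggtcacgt
The CTGF window holds 3 copies, whose first bases lie 169, 104 and 95 bases before the start, and the ANKRD1 window holds 2 copies, 220 and 128 bases before it. The LATS2 window holds 0. Among the 10 windows of the members, 5 hold at least 1 copy on either strand, the others being YAP1, 1 of the starts of AMOTL2 and 1 of the starts of AJUBA. The AMOTL2 and AJUBA copies lie inside the annotated gene, and the window of the more upstream start holds 0 in both genes. Annotated exons cover 250 bases of the YAP1 window and of the AJUBA window with a copy, and 115 of the AMOTL2 one. Of 35116 RefSeq windows of the same length, 11.9% hold at least 1 copy, 0.94% at least 2 and 0.0826% at least 3. A match describes the letters in a window and does not show that a factor was bound there. The printed windows were picked partly by expression, and whether copies go with zone differences was not tested. YAP1, with 1 copy, showed no detectable zone difference, while WWTR1, with 0 copies in its windows, had lower values in the invasion zone.

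The 4 libraries held from 11789243 to 37591782 counts, and both replicate 2 libraries were the shallower ones. Mitochondrial genes took 1.06% to 1.72% of the counts. Values are given as normalized CPM, which are counts scaled to a common library size with factors from the trimmed mean of M values (TMM). The labelled melanoma origin was only faintly visible in the lineage markers. Of 7 melanocytic markers, SOX10 and TYR were at 0 counts in all 4 libraries, S100B reached 3 counts at most, and the summed level of the list was 3.18 to 3.77 CPM in the core and 2.64 to 5.55 CPM in the invasion zone. Of 5 markers of other cell types, PTPRC, CDH5, EPCAM and KRT5 had at most 7 counts in a library, while the endothelial and leukocyte gene PECAM1 had 18.1 and 7.43 CPM in the core and 5.23 and 0.926 CPM in the invasion zone. The summed level of these 5 was 7.76 to 18.5 CPM in the core and 0.926 to 5.47 CPM in the invasion zone. Nearly all of this sum was PECAM1, and its part in the results was not tested. In bulk RNA, fewer cells that express a gene and less RNA per cell cannot be told apart.

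The question of the comparison was whether signaling programs differ between core and invasion zone. The targets CTGF and CYR61 were on average 2.80-fold and 2.33-fold higher in the invasion zone, AMOTL2 1.68-fold and TEAD4 1.70-fold, while YAP1 differed by less than the spread between libraries and WWTR1 was lower. None of these differences passed edgeR's quasi-likelihood test without a replicate term, in which 0 of 15529 genes had an adjusted p under 0.05 (0% called in either direction). At an unadjusted p under 0.05 that test held 1841 genes as higher (11.9%) and 1928 as lower (12.4%), and among the 9 members tested 5 as higher and 1 as lower. DESeq2 without a replicate term called 4 members higher and 0 lower, against 5.22% and 5.64% of all genes. Without a count filter or a replicate term, on 32869 genes, edgeR also called 4 higher and 0 lower, against 3.49% and 4.34%. Only 15529 of the 32869 genes passed the count filter, and the rest hold few reads, so 3.49% and 4.34% are low as a background. With the replicate number as a block, edgeR called 6 members higher (CTGF, CYR61, AMOTL2, TEAD4, TEAD1 and AJUBA) and 1 lower (WWTR1), against 19.4% of all genes in each direction. DESeq2 with the block gave the same counts of 6 and 1, against 14.1% and 12.5% of all genes. DESeq2 gave no adjusted p for 2710 genes without the block and for 3011 with it. Its shares count those genes as not called and are therefore low as a background, since all 9 tested members had an adjusted p. The median log2 fold change of the 9 tested members was 0.51, and that of all genes tested was -0.01. ANKRD1, the member that did not pass the count filter, is described with the targets.

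**Figure D1:**
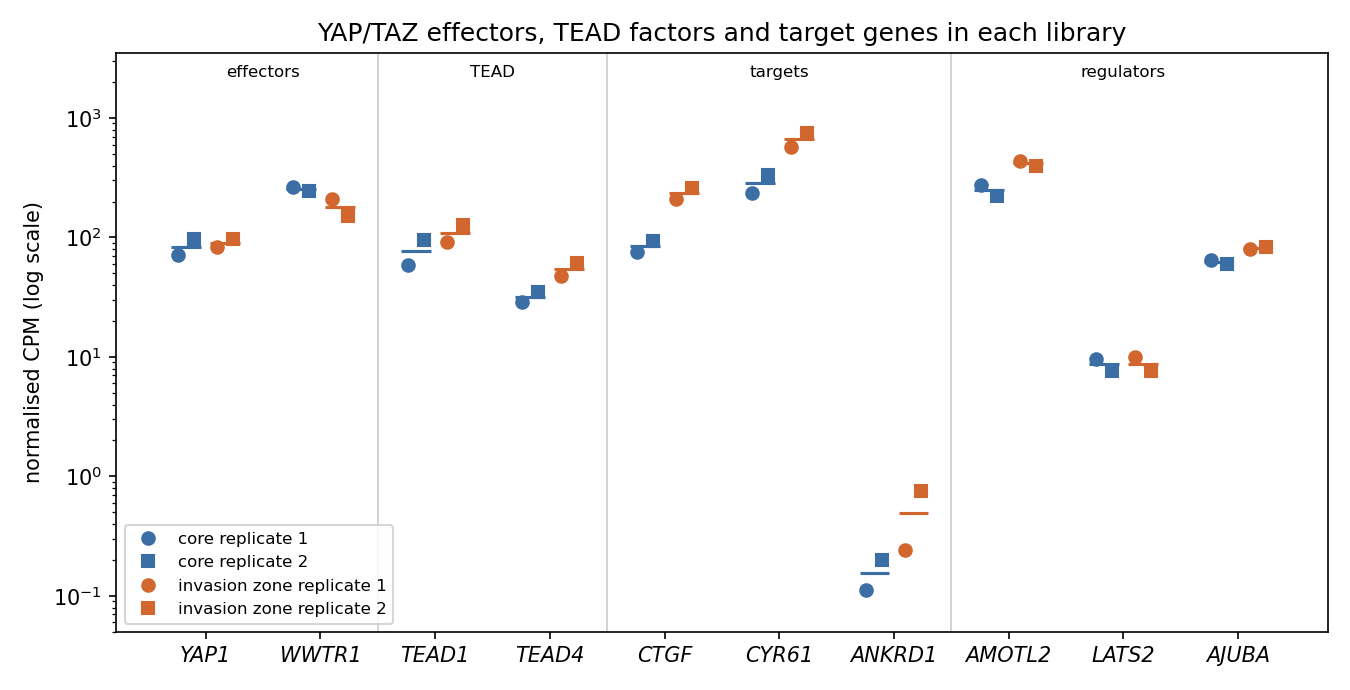
Normalized CPM (log axis) of the 10 members in each of the 4 libraries, with core libraries in blue, invasion zone libraries in orange, replicate 1 as circles, replicate 2 as squares and the mean of each zone as a line. CTGF and CYR61 lie higher in both invasion zone libraries than in both core libraries, the zones overlap for YAP1, TEAD1 and LATS2, and ANKRD1 lies below 1 CPM throughout.

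Of the effectors, YAP1 (chromosome 11 of GRCh38, 102110447 to 102233424) had 71.1 and 97.0 CPM in core replicates 1 and 2 and 83.9 and 97.5 CPM in the invasion zone. The zones overlapped, since core replicate 2 lay above invasion zone replicate 1. The log2 fold change was 0.11 (standard error 0.20, edgeR adjusted p = 0.777), with a 95% interval from -0.39 to 0.61. With the replicate block it was 0.13, with an interval from -0.09 to 0.34 (edgeR adjusted p = 0.321), so that a zone difference in YAP1 was not detectable here and a fold of 2 in either direction lay outside the interval. Within replicate 1 the invasion zone to core ratio was 1.18 (exact 95% counting interval 1.12 to 1.24), and within replicate 2 it was 1.00 (0.930 to 1.09).

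WWTR1 (chromosome 3, 149517235 to 149736714) went the other way. It had 266 and 244 CPM in the core and 209 and 151 CPM in the invasion zone, so that neither invasion zone library reached the level of a core library, a pattern shared by 30.3% of all genes tested. The log2 fold change was -0.50 (standard error 0.20, edgeR adjusted p = 0.202) and -0.51 with the block (standard error 0.09, edgeR adjusted p = 0.00277). Without the block, WWTR1 moved to -0.29 when invasion zone replicate 2 was left out and to -0.76 when invasion zone replicate 1 was left out. The ratio was 0.787 (0.763 to 0.811) within replicate 1 and 0.619 (0.585 to 0.655) within replicate 2. In counts of the same library, WWTR1 stood at 3.74 and 2.52 per YAP1 count in the core and at 2.49 and 1.55 in the invasion zone.

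The TEAD factors, which supply the DNA-binding part of the complex, were both higher on average in the invasion zone. TEAD4 (chromosome 12, 2959330 to 3040676) had 29.0 and 34.8 CPM in the core and 47.2 and 61.3 CPM in the invasion zone, without overlap between the zones, as for 28.1% of all genes tested in this direction. Its log2 fold change was 0.76 (standard error 0.20, edgeR adjusted p = 0.135), and with the block 0.76 (standard error 0.10, edgeR adjusted p = 0.000571).

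TEAD1 (chromosome 11, 12674421 to 12944737) had 58.7 and 94.6 CPM in the core and 92.1 and 126 CPM in the invasion zone. Its zones overlapped, because TEAD1 also differed between the replicates, with replicate 2 above replicate 1 by 0.69 on the log2 scale in the core and by 0.46 in the invasion zone. Within each replicate the invasion zone was the higher one, with ratios of 1.57 (1.49 to 1.66) and 1.34 (1.24 to 1.44). The log2 fold change of TEAD1 was 0.51 (standard error 0.28, edgeR adjusted p = 0.325), and with the block 0.54 (standard error 0.09, edgeR adjusted p = 0.00204). Without the block it depended on single libraries and was 0.22 without core replicate 1, 0.27 without invasion zone replicate 2 and 0.91 without core replicate 2. There were 0.495 and 0.368 TEAD4 counts per TEAD1 count in the core and 0.512 and 0.484 in the invasion zone, and these ratios overlapped between the zones, with a mean difference of 0.22 on the log2 scale (exact permutation p = 0.667, two-sided).

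Of the targets, CTGF, listed today as CCN2 (chromosome 6, 131948176 to 131951372), encodes a secreted matricellular protein and is one of the most used readouts of YAP/TAZ activity. It had 75.7 and 93.2 CPM in the core and 212 and 261 CPM in the invasion zone, and its window with 3 GGAATG copies is the one printed above. Every invasion zone library lay more than 2-fold above every core library. The log2 fold change was 1.49 (standard error 0.19, edgeR adjusted p = 0.128), and with the block 1.49 (standard error 0.08, edgeR adjusted p = 3.25e-05). The replicates gave nearly the same ratio, 2.80 (2.68 to 2.92) in replicate 1 and 2.81 (2.63 to 2.99) in replicate 2. The unblocked call depended on single libraries, as CTGF passed without core replicate 2 (adjusted p = 0.0427), without invasion zone replicate 1 (0.000892) and without invasion zone replicate 2 (0.0195), but not without core replicate 1 (0.275).

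CYR61, listed today as CCN1 (chromosome 1, 85580761 to 85584589), encodes another secreted protein of the same family. It had 237 and 334 CPM in the core and 577 and 752 CPM in the invasion zone, again without overlap. The log2 fold change was 1.22 (standard error 0.24, edgeR adjusted p = 0.128), and with the block 1.23 (standard error 0.07, edgeR adjusted p = 4.22e-05). The ratio was 2.44 (2.38 to 2.50) in replicate 1 and 2.25 (2.18 to 2.33) in replicate 2. With the block, CTGF and CYR61 were the members that also passed a 2-fold minimum, which 3.41% of all genes passed as higher and 7.06% as lower. Without the block CYR61 passed when invasion zone replicate 1 was left out (adjusted p = 0.00447).

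ANKRD1 (chromosome 10, 90912096 to 90921087), a nuclear ankyrin-repeat protein of muscle and a standard YAP target in many cell types, was close to the detection limit in MV3 spheroids. It had 4 and 3 counts in the core and 9 and 9 counts in the invasion zone, or 0.112 and 0.199 CPM against 0.240 and 0.757 CPM. The ratio was 2.15 within replicate 1 (0.600 to 9.55) and 3.81 within replicate 2 (0.950 to 21.9), so that both counting intervals include 1. ANKRD1 was tested only without the count filter, where its log2 fold change was 1.61 (edgeR adjusted p = 0.616), or 1.46 with the block (edgeR adjusted p = 0.466). At this depth a difference was not detectable.

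**Figure D2:**
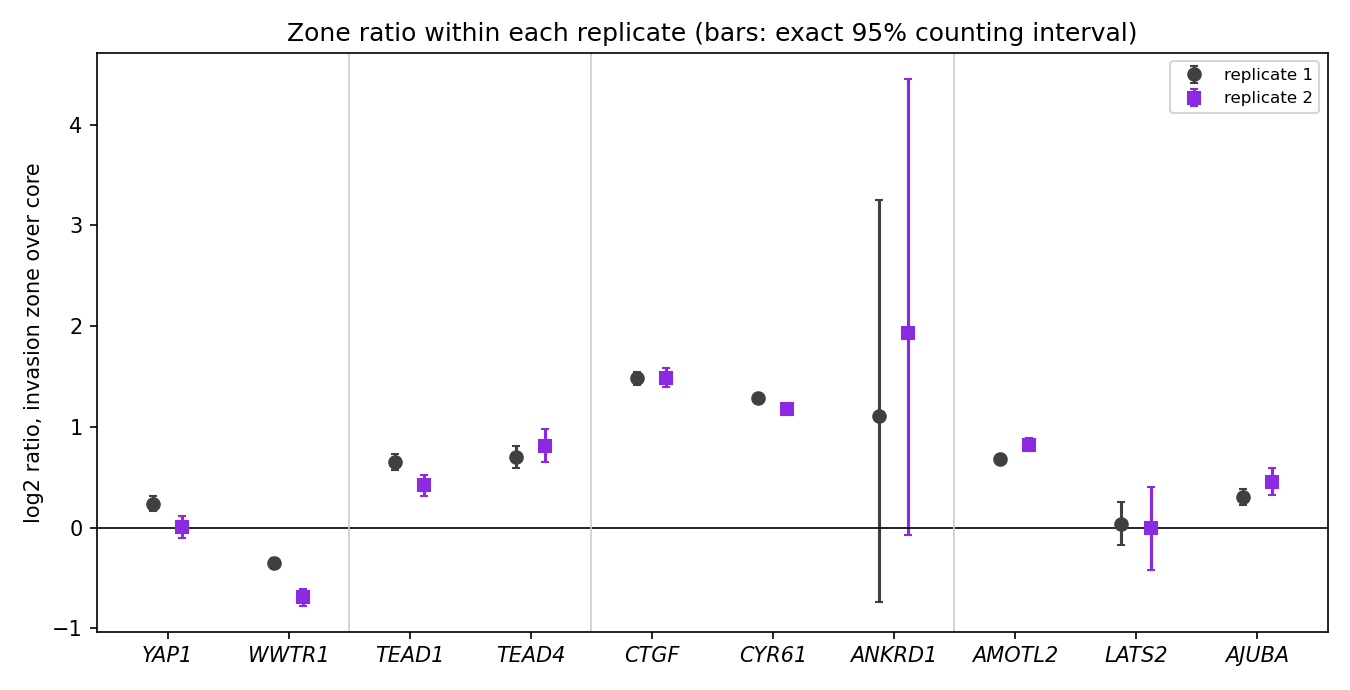
Log2 ratio of the invasion zone over the core within replicate 1 (circles) and replicate 2 (squares) for the 10 members, with exact 95% intervals that cover counting error only. CTGF, CYR61, AMOTL2, TEAD4, TEAD1 and AJUBA lie above 0 in both replicates, WWTR1 lies below 0 in both, and the intervals of LATS2 and ANKRD1 include 0.

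The regulators are genes that both act on the pathway and, in the case of AMOTL2 and LATS2, are switched on by it. AMOTL2 (chromosome 3, 134355347 to 134375479), an angiomotin-family scaffold that binds YAP and restrains it, had 273 and 224 CPM in the core and 438 and 397 CPM in the invasion zone. The zones did not overlap. Its log2 fold change was 0.75 (standard error 0.16, edgeR adjusted p = 0.130), and with the block 0.75 (standard error 0.08, edgeR adjusted p = 0.000167). The ratios were 1.61 (1.57 to 1.65) and 1.77 (1.69 to 1.85).

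LATS2 (chromosome 13, 20973036 to 21061586), a kinase that inactivates YAP and TAZ, had 9.70 and 7.69 CPM in the core and 9.95 and 7.66 CPM in the invasion zone. Its values separated by replicate and not by zone, since each replicate 1 library lay above each replicate 2 library. The log2 fold change was 0.02 with a 95% interval from -0.63 to 0.67 (edgeR adjusted p = 0.971), and with the block from -0.39 to 0.43 (edgeR adjusted p = 0.947). The sign turned with the scaling, and the log2 fold change was -0.012 with upper-quartile scaling.

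AJUBA (chromosome 14, 22971177 to 22982551), a LIM protein that binds LATS kinases and limits their activity, had 65.3 and 60.4 CPM in the core and 80.7 and 83.0 CPM in the invasion zone. The difference was small but lay outside the spread within the zones, with a log2 fold change of 0.38 (standard error 0.14, edgeR adjusted p = 0.179) and, with the block, 0.38 (standard error 0.09, edgeR adjusted p = 0.0112). The ratio was 1.24 (1.17 to 1.31) within replicate 1 and 1.37 (1.25 to 1.50) within replicate 2.

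To set targets against effectors without any scaling between libraries, counts were divided within each library. Per YAP1 count there were 1.06 and 0.961 CTGF counts in the core and 2.52 and 2.68 in the invasion zone. Per YAP1 count there were 3.33 and 3.44 CYR61 counts in the core and 6.88 and 7.72 in the invasion zone. For AMOTL2, a regulator set beside the targets here, the values were 3.83 and 2.31 in the core and 5.22 and 4.07 in the invasion zone. All these ratios were higher in both invasion zone libraries than in both core libraries, a pattern that 28.1% of tested genes showed in CPM. The share of genes whose ratio to YAP1 shows it was not computed. The mean differences were 1.36, 1.11 and 0.63 on the log2 scale, in the order given. Against WWTR1 the gap was wider, with a mean difference of 2.01 for CTGF, 1.75 for CYR61 and 1.27 for AMOTL2. The widening is the same for each gene by construction and adds nothing about the targets. It only restates that WWTR1 was lower relative to YAP1 (mean log2 difference -0.64). The exact two-sided permutation test over libraries gave p = 0.333 for each of these 6 ratios, which is the smallest value that 2 against 2 libraries allow. The ratio of CTGF to CYR61 moved far less, from 0.320 and 0.279 in the core to 0.367 and 0.348 in the invasion zone. The zones overlapped for LATS2 per YAP1, with 0.136 and 0.0793 in the core and 0.119 and 0.0786 in the invasion zone. They also overlapped for AJUBA per YAP1, with 0.918 and 0.623 against 0.962 and 0.851.

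**Figure D3:**
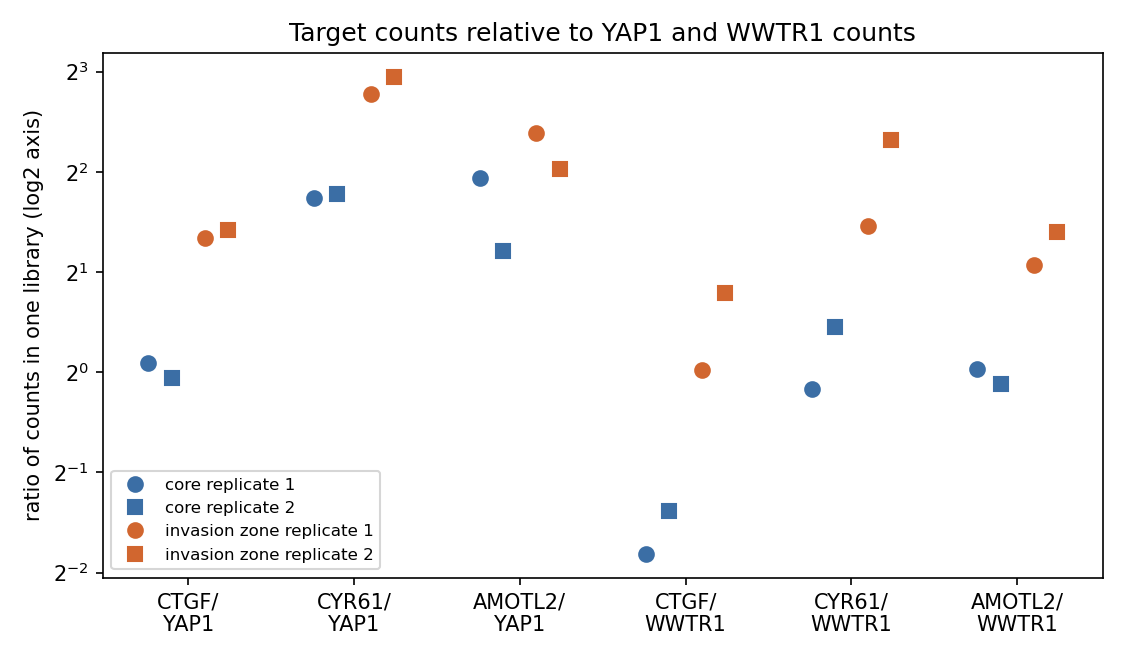
Counts of CTGF, CYR61 and AMOTL2 divided by the counts of YAP1 or of WWTR1 in the same library (log2 axis), with core libraries in blue, invasion zone libraries in orange, replicate 1 as circles and replicate 2 as squares. For each of the 6 ratios both orange points lie above both blue points. LATS2 and AJUBA per YAP1, for which the zones overlapped, are not drawn.

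Levels were compared between genes only after division by the length of the annotated exons, in CPM per kilobase. In the core CYR61 led with 77.1, followed by AMOTL2 with 38.4, CTGF with 36.1, WWTR1 with 30.5, TEAD4 with 14.0, YAP1 with 13.3, AJUBA with 10.7, TEAD1 with 7.16, LATS2 with 1.55 and ANKRD1 with 0.0868. The core libraries of AMOTL2 and CTGF overlapped on this scale, as did those of TEAD4 and YAP1, so that these neighbours did not differ beyond their spread. In the invasion zone the order was CYR61 with 179.7, CTGF with 101, AMOTL2 with 64.4, TEAD4 with 23.8, WWTR1 with 21.6, YAP1 with 14.4, AJUBA with 13.9, TEAD1 with 10.2, LATS2 with 1.57 and ANKRD1 with 0.279. CTGF thus stood above AMOTL2 in both invasion zone libraries. TEAD4 and WWTR1 overlapped there, as did YAP1 and AJUBA. The order rests on the annotated exon length and not on the isoforms that MV3 cells use.

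Reads of some members could be shared with neighbouring genes, because the strand setting of the counting is not given in the sources used here. Of the 6311 exonic bases of YAP1, 639 lie opposite an exon of another gene, while WWTR1 shares 756 of 8353 with its antisense gene WWTR1-AS1, and CTGF shares 278 of 2338 with LINC01013. On the same strand, AMOTL2 shares 187 of 6479 with the pseudogene RPL39P5 and AJUBA 50 of 5885. TEAD1, TEAD4, CYR61, ANKRD1 and LATS2 share 0 exonic bases with other annotated genes.

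The wider pathway was followed in lists of other genes. Among 17 further YAP/TAZ targets, 16 were tested, and with the block edgeR called 9 higher and 2 lower in the invasion zone, against 19.4% of all genes in each direction. Their median log2 fold change was 0.40 in the test without the block. The fold changes and standard errors of single targets below are from that test too. The highest were GADD45A, a stress-induced growth arrest gene, with 48.5 and 74.8 CPM in the core and 110 and 169 CPM in the invasion zone (log2 fold change 1.18, standard error 0.30), and AXL, a receptor tyrosine kinase, with 633 and 629 CPM against 1224 and 1121 CPM (0.89, standard error 0.14). The lowest were IGFBP3, a carrier of insulin-like growth factors, with 30.4 and 31.4 CPM in the core and 6.46 and 11.9 CPM in the invasion zone (-1.78, standard error 0.32), and TGFB2, a secreted growth factor, with 3.60 and 3.45 CPM against 1.87 and 1.01 CPM (-1.24, standard error 0.41). The targets did not share a direction. FOXF2 had 1 count in all libraries together and was not tested.

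Upstream of YAP and TAZ, 17 of 19 kinases, scaffolds and regulators were tested. The block gave 5 higher, 2 lower and 10 without a call, against 19.4% of all genes in each direction. The median log2 fold change was 0.18 in the test without a block. Values of single genes below are from that test as well, unless the block is named. NF2, which encodes the membrane-associated tumor suppressor merlin, had the largest difference, with 117 and 167 CPM in the core and 236 and 297 CPM in the invasion zone (log2 fold change 0.91, standard error 0.23). It was followed by WWC1, the scaffold KIBRA (0.77, standard error 0.25). MAP4K4, WWC2 and LIMD1 were the other genes called higher and are named after their values were seen. The genes called lower were AMOTL1, an angiomotin-family scaffold (-0.42 with the block, standard error 0.12), and SAV1, the partner of the MST kinases (-0.27 with the block, standard error 0.09). The core kinases STK3, STK4 and LATS1, named after their values were seen, passed in neither direction, with log2 fold changes of 0.19, 0.13 and 0.07. AMOT had 1 count in each replicate 1 library, and DCHS1 had 8 counts in 1 library.

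Of the other TEAD and VGLL factors, VGLL3, a TEAD-binding cofactor, had 53.5 and 72.3 CPM in the core and 83.4 and 119.8 CPM in the invasion zone, and VGLL4, which competes with YAP for TEAD, had 44.2 and 50.1 CPM against 34.0 and 30.1 CPM. With the block VGLL3 was called higher, and VGLL4 and TEAD2 lower. TEAD3 passed in neither direction (log2 fold change 0.25, standard error 0.30, both without the block). All 4 TEAD genes were therefore detected, and TEAD4 had the largest log2 fold change of them.

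CTGF, CYR61 and ANKRD1 are also known targets of serum response factor (SRF), so a list of 10 SRF genes was set beside them. Of the 8 tested, edgeR with the block called 4 higher and 0 lower, against the same 19.4% of all genes. DESeq2 with the block called 1 higher and 0 lower, against 14.1% and 12.5% of all genes. Without the block DESeq2 called 0 in either direction, against 5.22% and 5.64%. The median log2 fold change of the list was 0.25 in edgeR without the block. The genes that edgeR called were TAGLN, a smooth muscle actin-binding protein (0.88 with the block, standard error 0.29), and SRF itself (0.37 with the block, standard error 0.11). TPM1 and CALD1 were called as well and are named after their values were seen. The level of TAGLN was low, with 1.82 and 3.65 CPM in the core and 4.11 and 5.30 CPM in the invasion zone. Its ratio was 2.26 (1.68 to 3.07) within replicate 1 and 1.45 (0.996 to 2.13) within replicate 2. Of its 6550 exonic bases, 2498 are shared with other genes on the same strand and 2233 on the opposite one. ACTA2 and ACTG2 had at most 1.01 CPM in any library, and CNN1 and MYL9 had 0 to 2 counts.

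**Figure D4:**
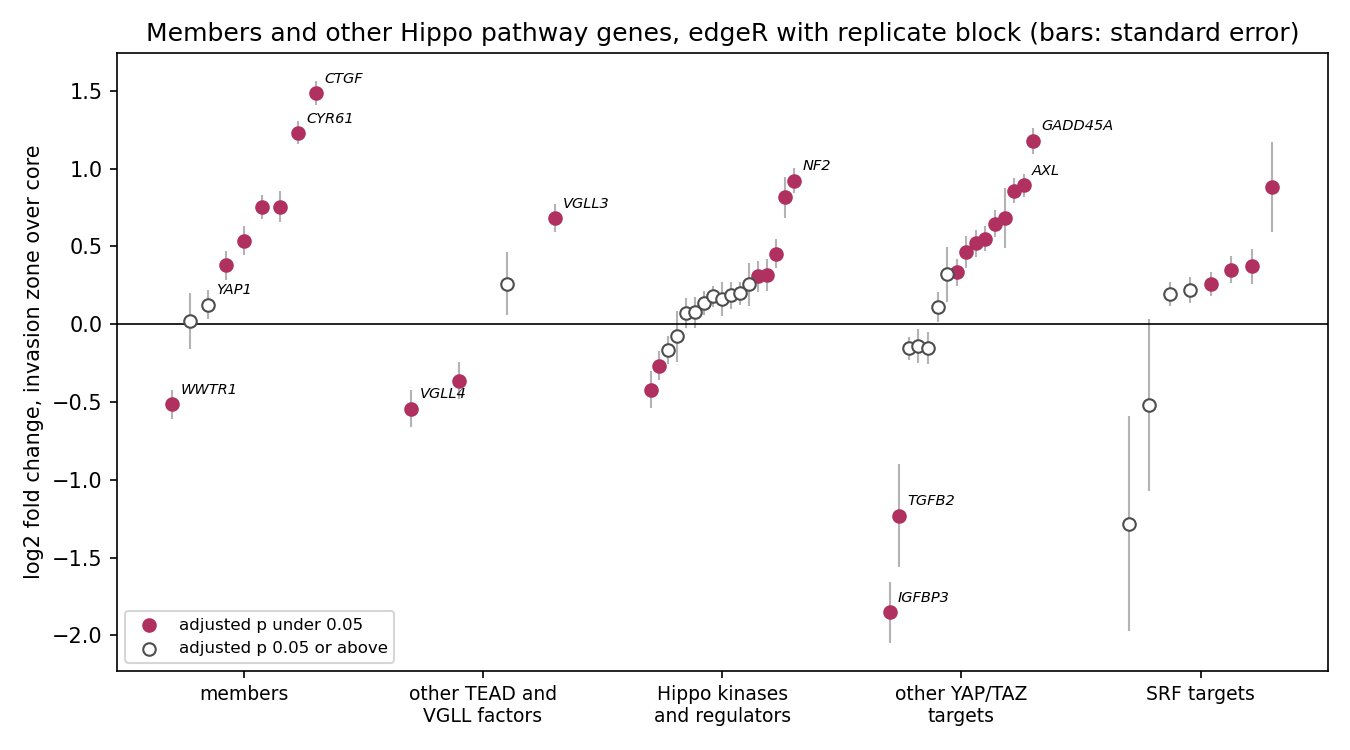
Log2 fold change between the zones (positive where the invasion zone was higher) with its standard error, from edgeR with the replicate block, for the tested members and the tested genes of the other pathway lists, ordered within each list by the fold change without the block. Filled points have an adjusted p under 0.05 and open points do not, and CTGF, CYR61 and GADD45A lie above 1 while IGFBP3, TGFB2 and, as an open point, ACTA2 lie below -1.

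The genes whose log2 CPM profile, centred on its mean over the 4 libraries, was nearest to that of CTGF were CENPH and KCNE5, at Euclidean distances of 0.04 and 0.05. Those nearest to CYR61 were DDX11, EBNA1BP2 and TTF2, at 0.03, 0.05 and 0.07. With 4 libraries and 15529 genes such distances describe the profiles and select genes of quite different levels. KCNE5 reached 0.842 CPM and EBNA1BP2 reached 455 CPM. Only uniquely mapped reads were counted, so DDX11 reads that fit near-identical copies equally well would be missing, which was not tested.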

How the data were processed

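Core and invasion zone RNA of MV3 spheroids, with 2 libraries per zone, was sequenced after SMARTer amplification. The authors filtered out ribosomal reads (Bowtie) and reads of low quality, mapped the rest to hg38 by STAR with its defaults, and deposited raw counts per gene of uniquely mapped reads, made with HTSeq-count. Which tool versions, annotation release and strand setting they used is not given in the sources used here.

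Of 56306 rows in the table, 2 repeated rows without counts were left out, and 0 columns went unused. The filter asked for the equivalent of 10 counts in a library of median size, in 2 or more libraries, and for a total of 15 counts, and 15529 genes passed. Zones were compared with edgeR 4.0.16 in R 4.3.3 (TMM scaling, quasi-likelihood test with default settings, no replicate term) and Benjamini-Hochberg adjustment, with calls at an adjusted p under 0.05. Standard errors are the log2 fold change divided by the root of the F statistic. Depth was 11789243 to 37591782 counts, and exact 95% counting intervals cover counting error only.

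The protocol takes a core and its corresponding invasion zone from a gel but does not tie the replicate number to it. Deviations from the zone means were correlated between libraries of the same number (0.58 across genes), so the fit with the replicate block is given beside the other. With 2 libraries per zone the deviations mirror each other. Both pairs therefore hold this same value, which is a single observation. Nothing in the labels says that the replicates are separate cultures, and p-values measure at most the spread between these libraries. With the block, the difference between the replicates is taken out of that spread. The blocked p-values then rest largely on variability pooled across genes and not on replicate spread measured for each gene. Alternatives were RLE and upper-quartile scaling, other count filters, DESeq2 1.42.0, limma voom (limma 3.58.1), each library left out, and a correction for GC content and length. The procedure was tested on simulated data. The members and lists were chosen with earlier results of these data known. The members are always named, and of each other list the 2 highest and the 2 lowest tested genes. For CTGF and CYR61 the 3 genes nearest in profile are named, except for 1 that is not reported here. Positions and exon lengths are from GENCODE 44 on GRCh38, which holds 98.1% of the identifiers. Promoter sequences are from RefSeq. Plots were made in Python 3.11.15 using matplotlib 3.10.9.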

Additional observations from a re-analysis of the deposited data

How the results depend on the processing

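The number of genes called was 0 with TMM, RLE and upper-quartile scaling, with at least 10 counts in every library and with limma voom, where 0 members were called as well. In the order higher, lower, 2-fold higher and 2-fold lower, the counts of genes were 3010, 3009, 530 and 1097 with the replicate block, a term for the pairing by number, 3935, 2663, 754 and 997 with the block and the correction for GC content and length, 811, 876, 354 and 548 with DESeq2, 2185, 1939, 427 and 731 with DESeq2 and the block, and 1148, 1425, 427 and 846 without a count filter. Without a count filter and with the block, chosen after seeing the data, they were 3087, 3256, 560 and 1198. At an unadjusted p, 454 genes were 2-fold higher and 909 were 2-fold lower. The share of higher genes among those 2-fold changed was 32.6% with the block and 43.1% with the block and the GC and length correction. The cause of these shifts was not tested.

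Members called were 6 higher and 1 lower in each setting with the block, and 4 higher and 0 lower with DESeq2 and without a count filter. The other pathway genes are, after the count filter, 4 TEAD and VGLL factors, 17 upstream genes, 16 further targets and 8 SRF genes. Of these, 19 were called higher and 6 lower with the block, against 19.4% of all genes in each direction. With the GC and length correction as well they were 23 and 5, against 3935 and 2663 of 15395 genes. DESeq2 called 5 and 1, against 5.22% and 5.64%, and with the block 13 and 3, against 14.1% and 12.5%. Without a count filter they were 8 and 1, against 3.49% and 4.34% of 32869 genes. Without it and with the block they were 21 and 5, against 3087 and 3256. Backgrounds from DESeq2 and without the filter are low, for the reasons given above. With each library left out, 0 to 826 genes were higher, 4 to 1287 lower, 0 to 555 2-fold higher and 4 to 1119 2-fold lower, with 0 to 3 members higher and 0 lower, and 0 to 6 other pathway genes higher and 0 to 1 lower. The extremes were the fits without core replicate 1 (0 and 4 genes) and without invasion zone replicate 1 (826 and 1287 genes), and in the latter TEAD4 passed with CTGF and CYR61 (edgeR adjusted p = 0.0237). In these fits the single library left in a zone takes its spread from the other zone. The sign turned for the members without a zone difference, YAP1 (-0.086 without core replicate 1, with a leave-one-out range up to 0.36) and LATS2 (-0.012 with upper-quartile scaling, -0.0021 with 10 counts in every library, -0.19 without invasion zone replicate 1 and -0.12 without core replicate 2, with a range up to 0.21). The other tested members kept their direction in all settings run. Depth limits ANKRD1, with 3 to 9 counts per library, and widens the interval of LATS2, with 91 to 373.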
